A study of Mus musculus with 6 samples.

Results

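The 10 genes described here are the 4 Id genes, Id1, Id2, Id3 and Id4, and 6 genes of bone morphogenetic protein (BMP) signalling, the ligands Bmp2 and Bmp4, the secreted antagonist Grem1, the receptor Bmpr2, the decoy receptor Bambi and the inhibitory Smad, Smad6. They were looked up by mouse gene symbol among the 55364 Ensembl genes listed in the count tables, and all 10 were found. The set was chosen from results of the same comparison between genotypes that is described here, so the differences of these genes between genotypes are given as values with no test. RNA from primary mouse lung fibroblasts (LFs) was measured by Quant-seq, in which cDNA is primed at the poly(A) tail and the reads come from the 3′ end of each transcript. There were 3 libraries from wt LFs, and the other 3 came from LFs of mice with a disrupted Sh3pxd2a gene, which encodes the podosome scaffold Tks5. All 6 cultures were exposed to 10 ng/ml TGF-β1 in serum-free medium for 24 h, so neither genotype has an untreated counterpart here. The sample labels name the second genotype a TKS5 knockout, whereas the study's text calls it Tks5+/-, and these libraries are referred to as labelled Tks5+/-. In the Tks5+/- mice 1 allele lacks the loxP-flanked exon 11 of Sh3pxd2a, removed by a Cre driven from the CMV promoter in all tissues, and the sources do not say whether the tm1b or the tm1d form of this allele was used for the libraries. The LFs were taken from C57Bl6/J mice 8 to 10 weeks old and used at passage 2 to 3. The study's text describes its samples as biologically independent, while the labels do not tie libraries to animals, and standard errors and p-values measure the spread between these libraries.

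BMPs are secreted dimers that bring type II receptors such as Bmpr2 together with type I receptors, which phosphorylate Smad1, Smad5 and Smad9. These Smads enter the nucleus with Smad4, and the Id genes are their best known direct targets. Id proteins hold a helix-loop-helix without a DNA-binding region, so that they pair with E proteins and other basic helix-loop-helix factors and keep them off DNA. The pathway restrains itself at several levels, through secreted antagonists such as Grem1, the decoy receptor Bambi and the inhibitory Smad6, all of which BMP or TGFβ can induce. In the lung, loss of BMPR2 function is known for its link to pulmonary arterial hypertension, and Gremlin 1 for its rise in fibrotic lung tissue.

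Promoter windows of 300 bases, 250 before and 50 after the RefSeq start of transcription, were at hand for 7 of the 10 genes in GRCm38.p6, and those of Id3, Id2 and Smad6 are printed because the first has none of the letters searched, the second has a GC-rich Smad motif with an E-box and the third has a rare Smad palindrome. The Id3 window is chr4:136143572-136143871 on the forward strand, the Id2 window chr12:25096043-25096342 on the reverse strand and the Smad6 window chr9:64022010-64022309 on the reverse strand, each written 5′ to 3′ with the motifs in capitals.
Id3: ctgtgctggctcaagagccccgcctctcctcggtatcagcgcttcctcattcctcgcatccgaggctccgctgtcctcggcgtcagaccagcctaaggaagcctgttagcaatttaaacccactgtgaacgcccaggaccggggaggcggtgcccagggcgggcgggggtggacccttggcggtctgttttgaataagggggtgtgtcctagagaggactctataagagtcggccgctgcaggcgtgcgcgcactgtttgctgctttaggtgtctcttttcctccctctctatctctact
Id2: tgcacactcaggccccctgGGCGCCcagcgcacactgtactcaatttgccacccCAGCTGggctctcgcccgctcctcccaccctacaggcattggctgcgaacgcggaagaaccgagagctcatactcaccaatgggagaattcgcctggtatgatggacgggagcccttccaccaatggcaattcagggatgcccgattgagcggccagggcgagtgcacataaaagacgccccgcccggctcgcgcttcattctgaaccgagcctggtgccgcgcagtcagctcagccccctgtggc
Smad6: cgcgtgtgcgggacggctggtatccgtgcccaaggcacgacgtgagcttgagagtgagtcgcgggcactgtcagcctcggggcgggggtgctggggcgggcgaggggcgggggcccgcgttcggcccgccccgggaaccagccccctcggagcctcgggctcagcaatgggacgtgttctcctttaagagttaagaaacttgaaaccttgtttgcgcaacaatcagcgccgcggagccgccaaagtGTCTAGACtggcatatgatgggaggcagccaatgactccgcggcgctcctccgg
The letters searched on both strands were GGCGCC, the core bound by Smad1 and Smad5, the palindrome GTCTAGAC and the box CAGACA, bound by other Smads, and the E-boxes CACGTG and CAGCTG, bound by basic helix-loop-helix factors. None of these motifs contains another. Over 32851 windows of the same length, the first of these was present in 11.9%, the palindrome in 0.213%, the box in 21% and the E-boxes, in that order, in 7.15% and 16.3%. GGCGCC was present in 4 of the 7 windows, 231 bases before the start in Id2, 148 in Id4, 105 in Bmpr2 and 78 in Grem1, of which Id2 and Grem1 were higher, Bmpr2 lower and Id4 overlapping between genotypes. The 7 windows held 59.3% to 73.3% G and C, against a median of 52.7% over all windows, and GGCGCC consists of G and C only. Its share among windows of like GC content was not taken, so no excess is read from the 4 of 7. GTCTAGAC began 4 bases before the start of Smad6. An E-box CAGCTG began 196 bases before the start of Id2 and an E-box CACGTG 188 bases before that of Bmp4. A match describes the letters and is not evidence of a bound site.

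The 3′ UTR was searched for ATTTA, the core of the AU-rich elements that mark short-lived mRNAs, and for the longer TATTTAT, which contains it. Of 20986 genes with a 3′ UTR in the annotation, 64.7% held ATTTA and 27.4% held TATTTAT, and the median 3′ UTR was 935 bases long. Id1 and Id3 held neither, in 3′ UTRs of 563 and 536 bases. TATTTAT occurred 2 times in Id2, 1 time in Id4, 4 times in Bmp2, 2 times in Bmp4, 1 time in Smad6 and 4 times in Bmpr2, whereas Grem1 and Bambi held ATTTA only, 7 and 4 times. The first such element of Id2, Bmp4 and Smad6 is printed with its surroundings to show one of a gene that was higher, one of a gene that was lower and one of a gene that overlapped, with the element in capitals, 212, 227 and 187 bases after the stop codon.
Id2: tgtgataccgtTATTTATgagagactttc
Bmp4: caccttgacctTATTTATgactttacgtg
Smad6: tacaacgtaatTATTTATatatggtgcaa
The Bmp4 piece lies at chr14:46383615-46383643 and the Smad6 piece at chr9:63953320-63953348 of GRCm38, both on the reverse strand. Elements occurred both in genes that were higher and in genes that were lower in the libraries labelled Tks5+/-.

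The libraries held 1344507 to 2369882 counts, and 10346 genes were kept for the test. The targeted gene, Sh3pxd2a, had 205, 190 and 284 counts in the wt libraries and 238, 258 and 260 in the libraries labelled Tks5+/- (log2 fold change 0.29 with a standard error, SE, of 0.20, adjusted p = 0.249). Its reads come from the 3′ end, outside the deleted exon, and whether this bears on the counts was not tested. By quantitative RT-PCR the paper reports a lower level of Tks5 mRNA in Tks5+/- LFs, and no such fall was seen in these counts. The paper lists several Tks5 primer pairs, including a pair at the deleted exon. It does not say which was used on the LFs, so the measures may differ. The genotype of the libraries was not tested here. The summed level of 10 fibroblast markers ran from 3970 to 5350.5 counts scaled to 1e6 per library (CPM) in the wt libraries and from 5656 to 8798 CPM in the libraries labelled Tks5+/-. These markers moved both ways, with 4 called higher, 5 not called and 1 called lower. The lower one was Pdgfrb, with means of 182 CPM for wt and 91.2 CPM for Tks5+/-. wt replicate 3 stood apart, with 1842 CPM summed over 10 macrophage markers, each at its highest there, against 349 and 318 CPM in the other wt libraries and 118 to 137 CPM in those labelled Tks5+/-. Of these markers 9 were tested, with 5 called lower, 0 higher and 4 not called. Cybb had 67, 66 and 449 counts in the wt libraries against 1, 3 and 1, and Itgax 25, 22 and 96 against 0, 0 and 1. Lyz2, at 76.3 to 106 CPM, made up most of the sum in the libraries labelled Tks5+/-. The 11 endothelial markers summed to 128 to 169 CPM in the wt libraries and 46.8 to 61.9 CPM in the libraries labelled Tks5+/-, where Ramp2 and Egfl7 carried nearly all of it and the other 9 had at most 3 counts in every library. The 8 mesothelial markers summed to 37.5 to 50.8 CPM against 5.63 to 14.3 CPM, and the 9 epithelial markers to 14.4 to 36.3 CPM against 29.2 to 60.3 CPM. Of the 9 epithelial markers, 8 were at 0 in every library labelled Tks5+/- and 5 were at 0 in every wt library. The sum in the libraries labelled Tks5+/- was Ager alone, called higher, with means of 11.8 CPM for wt and 42.3 CPM for Tks5+/-. The 8 markers of smooth muscle and pericytes summed to 4853 to 5748 CPM against 6286 to 7164 CPM but moved both ways, with Tagln and Cnn1 called higher and Myh11, Notch3 and Cspg4 lower. Cspg4, a pericyte marker, fell from 22.1 ± 1.55 CPM (SD, n = 3) to 1.80 ± 0.554 CPM (SD, n = 3). In such bulk samples, fewer cells of a type and less RNA per cell cannot be told apart.

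Of the 10 genes, Id1, Id2, Id3, Grem1 and Bambi were higher in every library labelled Tks5+/- than in any wt library, and Bmp4 and Bmpr2 were lower in every one. Id4, Bmp2 and Smad6 overlapped between genotypes. Bmp2 was too low to be kept for the test. The other 9 had a median log2 fold change of 0.78, against -0.05 over all genes tested. A gene counts as called at an adjusted p below 0.05 in edgeR's quasi-likelihood test together with a change of 1.2-fold or more. By that rule 44.9% of all genes tested were called, 22.8% higher and 22.1% lower, and 53.8% of all genes tested had groups that did not overlap. Of the 9 genes, 7 were called, 5 higher and 2 lower, and the same 7 did not overlap. Because the set was selected on this contrast, nothing is read from that count. The lists of related genes described below were also chosen with earlier results of these data known, so their calls and adjusted p are descriptive.

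**Figure D1:**
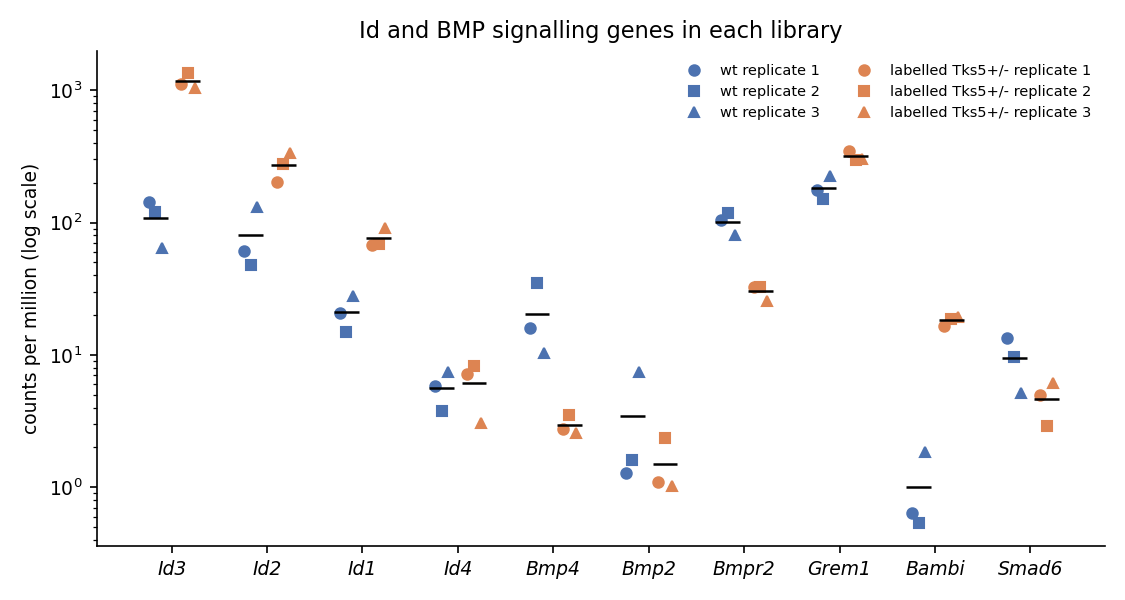
Level of each of the 10 genes in each library, in CPM on a log axis, with the wt libraries in blue, the libraries labelled Tks5+/- in orange, a symbol for each replicate and a black line at the mean of 3. Id3 was between 1044 and 1345 CPM in the libraries labelled Tks5+/- and between 63.8 and 144 CPM in the wt libraries, while Id4, Bmp2 and Smad6 overlapped between genotypes.

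Id3 (chromosome 4 of GRCm38, 136143497 to 136145755), the inhibitor of differentiation with the highest level here, was counted 223, 223 and 172 times in the wt libraries, in the order of the replicates, and 2016, 2299 and 2041 times in the libraries labelled Tks5+/-. At the scale of the library this was 144, 119 and 63.8 CPM against 1106, 1345 and 1044 CPM. The lowest library labelled Tks5+/- lay far above the highest wt library. The means were 109 ± 40.9 CPM (SD, n = 3) for wt and 1165 ± 159 CPM (SD, n = 3) for Tks5+/-, 10.7-fold higher and a log2 change of 3.43 (SE 0.27). Over the 6 fits that each omit 1 library it lay between 3.14 and 3.68, with the lowest value without wt replicate 3.

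Id1 (chromosome 2, 152736251 to 152737410), which with Id3 is a classical readout of BMP signalling, had 20.6, 15.0 and 27.8 CPM in the wt libraries and 67.5, 68.5 and 91.6 CPM in the libraries labelled Tks5+/-. The groups did not overlap, and the highest library of each genotype was replicate 3. The means were 21.1 ± 6.43 CPM (SD, n = 3) and 75.9 ± 13.6 CPM (SD, n = 3), a log2 change of 1.82 (SE 0.25). Without wt replicate 3 it was 2.10.

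Id2 (chromosome 12, 25093799 to 25097140), which is also well known from myeloid and lymphoid cells, had 61.1, 48.2 and 132 CPM in the wt libraries and 204, 279 and 336 CPM in the libraries labelled Tks5+/-. wt replicate 3, the library with the high macrophage markers, was the highest wt library, more than 1 SD above the others, and it still lay below every library labelled Tks5+/-. The means were 80.4 ± 45.1 CPM (SD, n = 3) and 273 ± 66.0 CPM (SD, n = 3), a log2 change of 1.74 (SE 0.33) that was 2.32 without wt replicate 3. The part of the macrophage markers in the wt level of Id2 was not tested.

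Id4 (chromosome 13, 48261228 to 48266026), the remaining family member, had 9, 7 and 20 counts in the wt libraries and 13, 14 and 6 in the libraries labelled Tks5+/-. wt replicate 3 had the most counts, but the next 2 and the lowest were labelled Tks5+/-, so the groups overlapped throughout. Its log2 fold change was 0.07 (SE 0.47), with a 95% interval from -0.90 to 1.04, and it was -0.34 where libraries were scaled by their totals alone.

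The summed level of the 4 Id genes was 231, 186 and 231 CPM in the wt libraries and 1385, 1700.5 and 1475 CPM in the libraries labelled Tks5+/-. The means were 216 ± 25.9 CPM (SD, n = 3) and 1520.1 ± 163 CPM (SD, n = 3), a ratio of 7.03. Since reads of this assay come from transcript ends, a count is not divided by transcript length, and shares within the family are shares of reads. Id3 took 62.1%, 64.1% and 27.6% of these reads in the wt libraries and 79.9%, 79.1% and 70.8% in the libraries labelled Tks5+/-. The low share is that of wt replicate 3, in which Id2 took 57.1% and was the leading Id gene. In the other wt libraries Id2 took 26.5% and 25.9%, and in the libraries labelled Tks5+/- 14.7% to 22.8%.

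**Figure D2:**
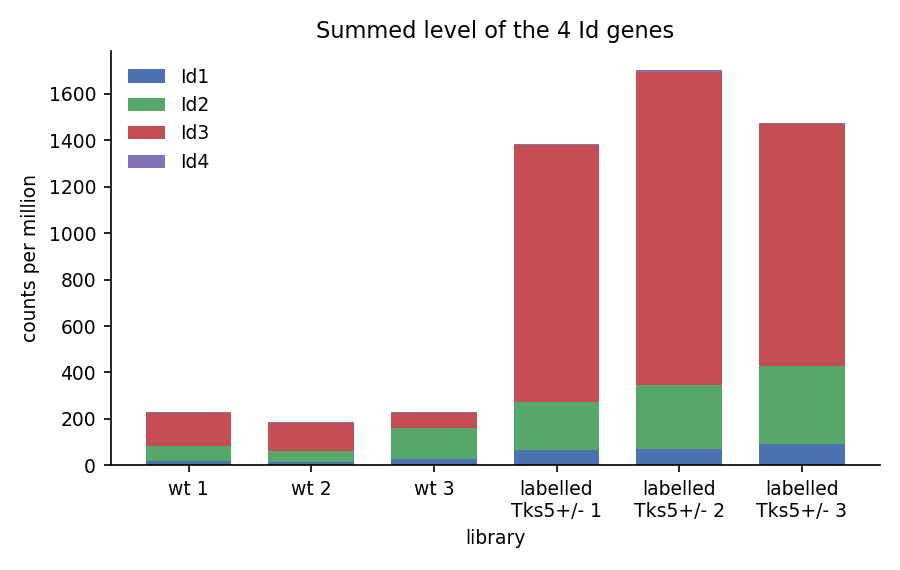
Summed level of the 4 Id genes in each library, in CPM, with the part of each gene stacked from Id1 at the bottom to Id4 at the top. The wt libraries reached 186 to 231 CPM and the libraries labelled Tks5+/- 1385 to 1700.5 CPM, and Id3 was the largest part in every library except wt replicate 3.

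Bmp4 (chromosome 14, 46383520 to 46390669, reverse strand), a BMP ligand long known from lung development, had 25, 65 and 28 counts in the wt libraries and 5, 6 and 5 in the libraries labelled Tks5+/-. wt replicate 2 was the highest, and no wt library was as low as those labelled Tks5+/-. In CPM this was 20.4 ± 12.8 (SD, n = 3) against 2.94 ± 0.505 (SD, n = 3), a log2 change of -2.76 (SE 0.48), which was -2.13 without wt replicate 2. The gene Gm15217 runs on the opposite strand across the 3′ end of Bmp4, from 46379414 to 46383608. It had 25, 63 and 27 counts in the wt libraries and 5, 6 and 5 in the libraries labelled Tks5+/-, nearly the same numbers, so most of these reads were counted under both genes and their strand cannot be told from the counts.

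Bmp2 (chromosome 2, 133552159 to 133562885), the other ligand of the set, had 2, 3 and 20 counts in the wt libraries and 2, 4 and 2 in the libraries labelled Tks5+/-. Apart from wt replicate 3 every library had at most 4 counts, and no difference could be seen at this depth. Of 12 other BMP and GDF ligands, 8 had any count and 3 were kept for the test, of which 1, Gdf6, was called. That was 33.3% of those tested, against 44.9% of all genes tested. Bmp6, the one with the most reads, was not called, with 75, 42 and 102 counts for wt and 69, 59 and 51 for Tks5+/-, or means of 36.2 and 32.8 CPM (log2 fold change -0.14, SE 0.27, adjusted p = 0.71). Gdf6, a ligand of cartilage and joint development, fell from 25.7 ± 4.53 CPM (SD, n = 3) to 8.26 ± 2.04 CPM (SD, n = 3), a log2 change of -1.62 (SE 0.32, adjusted p = 2.8e-04), and it was called in all 18 alternatives. The summed reads of Bmp2 and Bmp4, without Bmp6, were 17.4, 36.4 and 17.8 CPM in the wt libraries and 3.84, 5.85 and 3.58 CPM in the libraries labelled Tks5+/-.

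Grem1 (chromosome 2, 113746164 to 113758646), which encodes Gremlin 1, a secreted protein that binds BMP2 and BMP4 and keeps them from their receptors, had 176, 150.4 and 224 CPM in the wt libraries and 349.6, 295 and 303 CPM in the libraries labelled Tks5+/-. The groups did not overlap, and the gap between wt replicate 3 and the lowest library labelled Tks5+/- was wider than the SD of either genotype. The means were 184 ± 37.5 CPM (SD, n = 3) and 316 ± 29.4 CPM (SD, n = 3), a log2 change of 0.78 (SE 0.21). This is the smallest of the changes among the 7 genes with no overlap, and it depended on the scaling, at 0.36 with library totals and 0.43 on the authors' normalized counts, and was no longer called under either. The reads of Grem1 were 10.1, 4.13 and 12.6 times the summed reads of Bmp2 and Bmp4 in the wt libraries and 91.0, 50.4 and 84.7 times in the libraries labelled Tks5+/-. These ratios are of reads, not of protein, and take the reads of Bmp4 as counted.

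Among 16 other extracellular antagonists and modulators of BMPs, 13 had any count, 7 were tested, 1 was called higher and 3 lower. The 4 called were 57.1% of those tested, against 44.9% of all genes tested. Bmper, which binds BMPs and can both hinder and help them, rose from 57.8 ± 12.1 CPM (SD, n = 3) to 118 ± 13.6 CPM (SD, n = 3), a log2 change of 1.03 (SE 0.22, adjusted p = 5.63e-04). Crim1, a membrane protein with BMP-binding repeats, fell from 66.0 ± 18.7 CPM (SD, n = 3) to 20.4 ± 5.47 CPM (SD, n = 3), a log2 fold change of -1.68 (adjusted p = 3.31e-05). Nbl1, the antagonist also named DAN, fell by 0.79 on the log2 scale (adjusted p = 0.00425), a call lost with correction for GC content. Follistatin (Fst) had a log2 fold change of 0.69 (adjusted p = 0.052) and Fstl1 of 0.15 (adjusted p = 0.679). The antagonists Nog and Chrd were too low to be tested.

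Bmpr2 (chromosome 1, 59763400 to 59879014), the type II receptor for BMPs, had 105, 118 and 81.2 CPM in the wt libraries and 32.4, 32.8 and 25.6 CPM in the libraries labelled Tks5+/-. The replicates of each genotype lay close together and the groups were far apart. The means were 101 ± 18.5 CPM (SD, n = 3) and 30.2 ± 4.04 CPM (SD, n = 3), 3.35-fold lower in the libraries labelled Tks5+/-, with a log2 change of -1.74 (SE 0.23). Of the set, Bmpr2 has the longest transcript, 12899 bases, and corrected for the trend of each library with transcript length its log2 fold change was -0.94. Bmpr2 is also a receptor of endothelial cells. In the wt libraries their markers Pecam1 and Kdr had 7, 10 and 21 and 17, 17 and 28 counts. Both were near 0 in the libraries labelled Tks5+/-. Of the 11 endothelial markers not all did so, since Egfl7 had means of 65.7 CPM for wt and 20.7 CPM for Tks5+/-. Ramp2 did not fall, with 25.8 CPM for wt and 31.7 CPM for Tks5+/-. The summed endothelial markers were highest in wt replicate 3, with 5 of the 11 at their highest there. That library had the lowest wt level of Bmpr2, and a link between the markers and this level was not tested.

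Of 12 other receptors and co-receptors, 10 were tested and 2 were called, both lower. That was 20% of those tested, against 44.9% of all genes tested. Endoglin (Eng), a co-receptor abundant on endothelium and also found on fibroblasts, fell from 52.1 ± 10.6 CPM (SD, n = 3) to 18.2 ± 2.08 CPM (SD, n = 3), a log2 change of -1.50 (SE 0.25, adjusted p = 5.32e-05), and remained called in all 18 alternatives. The part of the endothelial markers in the changes of Eng and Bmpr2 was not tested. Neo1, a receptor of the repulsive guidance molecules that act as BMP co-receptors, fell by 0.99 (adjusted p = 0.00195), a call lost with correction for transcript length (log2 fold change -0.46). The type I receptors Bmpr1a and Acvr1 had log2 fold changes of -0.39 (adjusted p = 0.283) and 0.04 (adjusted p = 0.923), and the type II receptor Acvr2a of -0.62 (adjusted p = 0.0974).

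Bambi, on chromosome 18, encodes a receptor-like protein without a kinase that binds TGFβ and BMP receptors and blocks them. It had 1, 1 and 5 counts in the wt libraries and 30, 32 and 38 counts in the libraries labelled Tks5+/-. Bambi was barely detected in the wt libraries and was present at close to the same level in each library labelled Tks5+/-. The means were 1.01 ± 0.732 CPM (SD, n = 3) and 18.2 ± 1.56 CPM (SD, n = 3), a log2 change of 3.94 (SE 0.49). Its size rests on the few wt counts, of which most were in wt replicate 3, and without that library the log2 fold change was 4.80. In contrast to Id1, Id2 and Id3, its transcript is long, 5074 bases, and corrected for the length trend the log2 fold change was 4.28.

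Smad6 (chromosome 9, 63953076 to 64022059), the inhibitory Smad that acts mainly on the BMP branch, had 21, 18 and 14 counts in the wt libraries and 9, 5 and 12 in the libraries labelled Tks5+/-. In CPM this was 13.5, 9.63 and 5.19 against 4.94, 2.93 and 6.14. wt replicate 3 lay between the libraries labelled Tks5+/-, so the groups overlapped. The log2 fold change was -0.94 (SE 0.46) with a 95% interval from -1.90 to 0.02, and it was -1.28 without wt replicate 3 and -1.36 with library totals, under both of which it was called. Smad6 was thus not higher in any library labelled Tks5+/- than in wt replicates 1 and 2, whereas Id1, Id2, Id3 and Bambi were.

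Among 12 other Smads and Smad regulators, 10 were tested and 5 were called, all lower. That was 50% of those tested, against 44.9% of all genes tested. The transcripts of these 5, of 5290 to 6717 bases, all belong to the longest of 5 equal groups of tested genes by length. In that group 37.5% of genes were called lower. Smurf1, a ubiquitin ligase for Smad1 and Smad5, fell by 1.34 on the log2 scale (SE 0.25, adjusted p = 1.31e-04). Skil (SnoN) fell by 1.27 (adjusted p = 1.56e-04) and its relative Ski fell by 1.04 (adjusted p = 3.34e-04), both repressors that bind Smads, and the call of Ski was lost with correction for length and GC content (-0.48). Corrected for length alone, Smurf1 (-0.97) and Skil (-0.78) were still called. Smurf2, the paralog of Smurf1, fell by 0.81 (adjusted p = 0.0235), a call lost in 7 of 18 alternatives, among them the length correction (-0.44). Smad5, which carries the BMP signal, fell by 0.84 (adjusted p = 0.0449), a call lost in 11 of 18 alternatives, among them the length correction (-0.35). Smad1, the other main carrier in these libraries, had a log2 fold change of 0.19 (adjusted p = 0.646), the shared Smad4 of -0.40 (adjusted p = 0.137) and the inhibitory Smad7 of -0.14 (adjusted p = 0.773). Smad9 was too low to be tested.

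Of 14 genes that code for partners or targets of Id proteins, 13 were tested, 3 were called higher and 1 lower. The 4 called were 30.8% of those tested, against 44.9% of all genes tested. The 3 that rose are basic helix-loop-helix factors. Twist1, a factor of mesenchymal cells, rose from 3.02 ± 0.802 CPM (SD, n = 3) to 19.2 ± 5.77 CPM (SD, n = 3), a log2 change of 2.61 (SE 0.41, adjusted p = 2.43e-05). Tcf21, a factor of lung fibroblasts and lipofibroblasts, rose from 1.98 ± 0.148 CPM (SD, n = 3) to 9.69 ± 3.26 CPM (SD, n = 3), a 4.91-fold higher mean (adjusted p = 8.02e-04). Twist2 rose by 0.88 (adjusted p = 0.00536), a call lost where libraries were scaled by their totals. Elk4, an ETS factor that Id proteins can bind, fell by 1.06 (adjusted p = 0.00204). The E proteins, with which Ids pair directly, were not called, with log2 fold changes of 0.58 for Tcf3 (adjusted p = 0.396), -0.36 for Tcf4 (adjusted p = 0.193) and 0.11 for Tcf12 (adjusted p = 0.747). Their direction depended on the processing, since Tcf4 was at 0.23 with correction for length and at -0.78, then called, with library totals, and Tcf12 at 0.56 and -0.31.

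Most other BMP target genes were too low to be tested. Of 11 such targets, among them the Msx and Dlx homeobox genes, 10 had any count and 3 were high enough to be tested. By edgeR 0 of the 3 were called and 0 had an unadjusted p under 0.05, and DESeq2 and limma on the authors' normalized counts also called 0. Their log2 fold changes ran from 0.25 to 0.44. Over the 77 genes of all these lists outside the 10, 46 were tested, 4 were called higher and 12 lower, that is 34.8% of those tested against 44.9% of all genes, with a median log2 fold change of -0.17 against -0.05. Scaled by library totals they were 3 higher and 21 lower. As these lists were chosen with earlier results of these data known, nothing is read from the comparison with all genes.

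**Figure D3:**
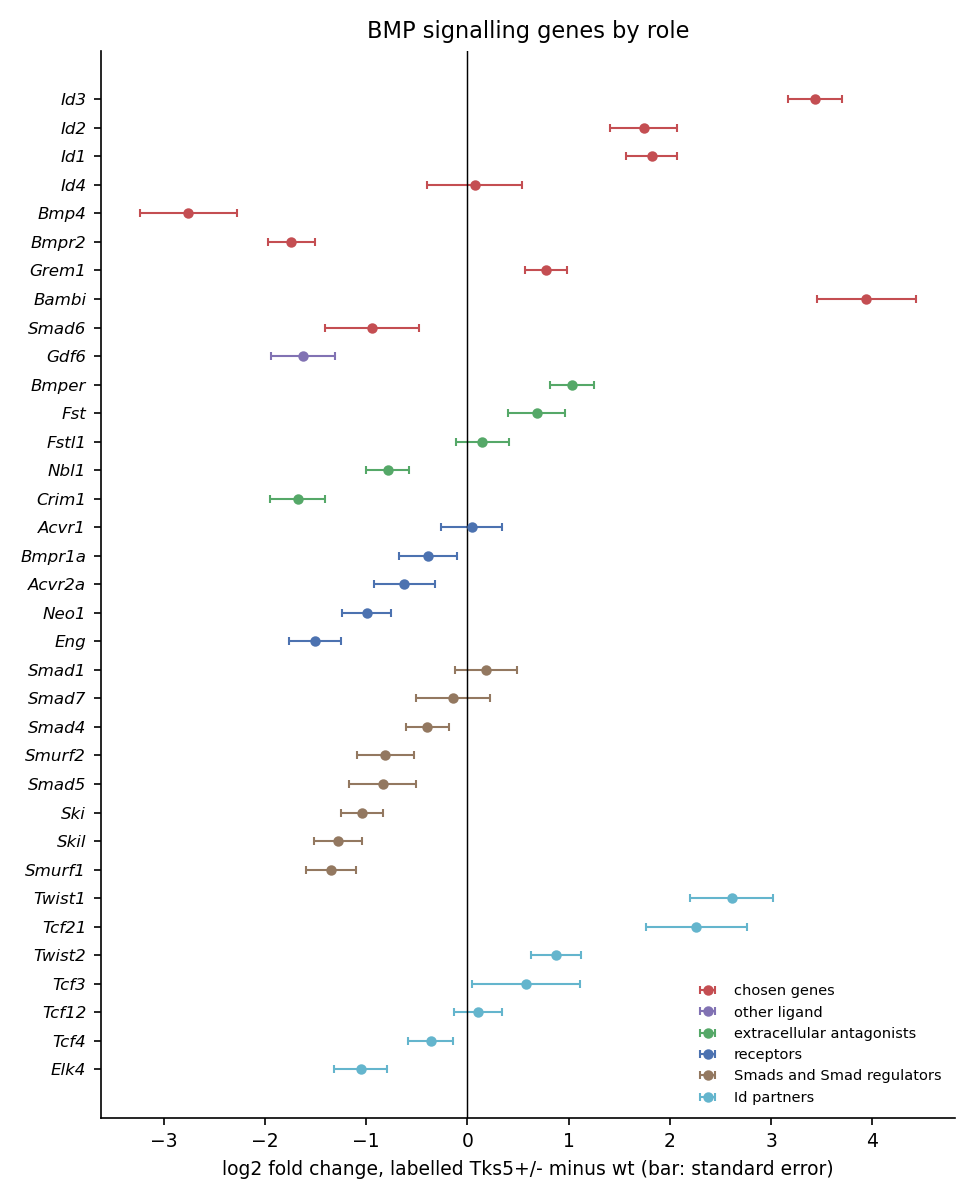
Log2 fold change, libraries labelled Tks5+/- minus wt, with its standard error as a bar, in colours by role. Shown are the tested genes of the set and the other tested BMP pathway genes and Id partners named in the text, except Bmp6. Id3 at 3.43 and Bambi at 3.94 lie furthest to the right, Bmp4 at -2.76 furthest to the left, and the called receptors and Smad regulators lie left of 0.

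Across all genes tested, the log2 fold change went down with transcript length. The Spearman correlation was -0.397 over 10339 genes, which are not independent replicates. With the genes split by length into 5 groups of equal size, in the group with the shortest transcripts the median was 0.65 and 47.6% were called higher, and in the group with the longest transcripts it was -0.53 and 37.5% were called lower. Id1, at 1160 bases, and Id3, at 1278 bases, belong to the shortest group and Bmpr2 to the longest. Corrected for the length trend, the log2 fold changes were 2.99 for Id3, 1.36 for Id1 and 1.58 for Id2, each on the same side of 0 as before. Grem1 moved the other way, to 1.00, and Bmp4 to -2.91. The cause of the trend with length was not tested.

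**Figure D4:**
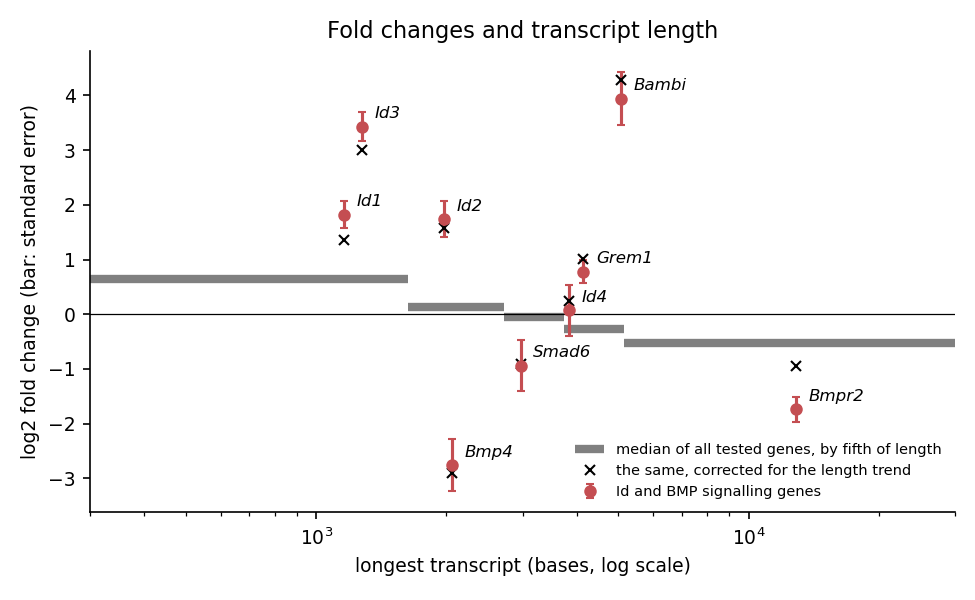
Log2 fold change of the 9 tested genes against the length of their longest transcript on a log axis, with standard errors as bars, values corrected for the length trend as crosses and the median of all genes in each of 5 equal groups by length as grey lines. The grey lines step down from 0.65 to -0.53, Bmpr2 moves from -1.74 to -0.94 with the correction, and Id3 and Bambi stay at 2.99 and 4.28.

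In the wt libraries the order of the mean levels was Grem1, Id3, Bmpr2, Id2, Id1, Bmp4, Smad6, Id4, Bmp2 and Bambi. Of these neighbours Id3, Bmpr2 and Id2 overlapped each other over the libraries, as did Id1 and Bmp4, Bmp4 and Smad6, Smad6 and Id4, Id4 and Bmp2, and Bmp2 and Bambi. In the libraries labelled Tks5+/- Id3 came first, far above Grem1 and Id2, which overlapped, and then Id1, Bmpr2, Bambi, Id4, Smad6, Bmp4 and Bmp2. There Id1, Bmpr2 and Bambi were each apart from their neighbours, while the other 4 lay between 1.02 and 8.19 CPM, each overlapping the next except that Bmp4 was above Bmp2 in every library. Bambi thus passed from the last place in the wt libraries to above Id4, Smad6 and both ligands.

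Over the 6 libraries, likeness was measured among 5180 genes with at least 50 counts on average, as the root mean square difference of the log2 level after centring each gene. The nearest gene to Id1 was Commd2 (difference 0.103), to Id2 Mis18a (0.108) and to Id3 Plac8 (0.418). No gene searched came closer to Id3 than that, a wider distance than for any other gene of the set. Plac8 had 46.3, 51.4 and 47.5 CPM in the wt libraries and 496, 566 and 317 CPM in the libraries labelled Tks5+/-. Nearest to Bmp4 was Faah (0.252), to Grem1 Slc35b2 (0.0958), to Bambi Mmp10 (0.209) and to Bmpr2 Nexn (0.122). For Id4 it was Adam9 (0.146) and for Smad6 Mtdh (0.196). With 6 libraries in a pair of groups, these distances mostly describe the difference between genotypes.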

How the data were processed

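Lung fibroblasts, 3 wt libraries and 3 labelled Tks5+/- (a knockout in the sample labels), were measured by Quant-seq on Ion Torrent. Reads were trimmed (Trim Galore) and aligned to GRCm38 by the authors, first by HISAT2 and the remainder by Bowtie2, who counted them over whole 3′ UTRs (at least 300 bases, with a flank of 50) and summed them per gene. Whether counting kept to the strand is not given in the sources used here. The raw counts deposited by the authors were used for every main value. The table of normalized counts, a score that the authors made with EDASeq and rounded, holds the same sorted values in every library and served as an alternative.

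Counts were filtered (filterByExpr), scaled (TMM) and tested with the robust quasi-likelihood F test of edgeR 4.0.16 in R 4.3.3 without covariates, with Benjamini-Hochberg adjustment over 10346 genes and both thresholds as in the text. Standard errors come from this test, and CPM from the scaled libraries. The fit was tested on simulated data. Symbols, lengths and 3′ UTRs came from GENCODE M21 for 55104 of the genes. Alternatives were RLE, upper-quartile and library-total scaling, limma 3.58.1 on log2 of the authors' normalized counts plus 1, DESeq2 1.42.0, no filter, at least 10 counts in every library, loess corrections (span 0.5, prior count 2) for GC content and length, the replicate block, and each library left out. Likeness used log2 of CPM plus 0.5. Plots were made with matplotlib 3.10.9 and tables with pandas 2.3.3 and numpy 2.4.6.

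The 10 genes and the lists were chosen with earlier results of these data known. All 10 are named. From the other lists, up to 4 called genes with the smallest adjusted p among those with at least 10 counts on average are named, together with core genes of each list. Smad5, Bmp6, Pdgfrb, Cybb, Itgax, Lyz2, Pecam1, Kdr, Ramp2, Egfl7, Ager, Tagln, Cnn1, Myh11, Notch3, Cspg4, Gm15217 and Plac8 are named for their values. One gene that this rule names is not reported here. Protein sequences were not used here. The authors' combined test and enrichment analyses were left out.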

Additional observations from a re-analysis of the deposited data

How the results depend on the processing

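The count of called genes ran from 3705 to 5306 over the alternatives, against 4642, and from 3853 to 4595 where 1 library was omitted. Of the 10 genes, 5 to 8 were called, with 5 where at least 10 counts were asked of every library, 8 without wt replicate 3, 6 on the authors' normalized counts without Grem1, and 7 with library totals, where Grem1 was lost and Smad6 added, and no log2 fold change of a called one changed sign. Of the other listed genes 12 to 24 were called. Library totals as the scale shifted the median over all genes tested from -0.05 to -0.47 (log2) and the calls from 2356 higher and 2286 lower to 1362 higher and 3944 lower. Relative to that median, Grem1, Id1 and Bmpr2 at 0.36, 1.40 and -2.16 on that scale kept their direction. On this scale Bmpr1a (-0.82), Acvr2a (-1.04), Smad4 (-0.81) and Tcf4 (-0.78) were called lower. Under at least 1 alternative the sign turned for Id4, Acvr1, Bmpr1a, Fstl1, Smad1, Smad7, Tcf4 and Tcf12, none of them called in the main test. With the replicate block 4668 genes, 15 of the other listed genes and 7 of the 10 were called, and Smad5 was not. Deviations of libraries with the same number correlated by -0.00101, -0.0637 and 0.082. No pairing by replicate number was seen, though 3 libraries per genotype cannot exclude one. Depth limits Bmp2, Id4, Smad6 and the wt level of Bambi, each with few counts in most libraries.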
